A study of Mus musculus with 8 samples.

Results

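The genes described here bind vitamin A in the cell, oxidize it to retinoic acid, break that acid down, or act as its receptors: Rbp2, Aldh1a1, Aldh1a2, Aldh1a3, Dhrs9, Cyp26b1, Rara, Rarb, and Rarg. Every probe set that the array annotation assigned to 1 symbol, that symbol being one of these 9, was taken. This gave 11 probe sets of 8 genes, of 34945 probe sets with 1 symbol and 18193 genes. Dhrs9, which oxidizes retinol, was not analysed here. The genes were chosen by their function with their differences between BTΔMAFF and BTWT mice on these arrays in view, so these differences are given as a description, with no test.

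The data came from colonic epithelial cells of 4 mice colonized with BTΔMAFF and 4 colonized with BTWT, 1 array per mouse. BTWT is wild-type Bacteroides thetaiotaomicron, a commensal that feeds on polysaccharides, and BTΔMAFF is its mutant without the maffC and maffD genes of the MAFF locus. All 8 were SPF C57BL/6 WT males given metronidazole and ciprofloxacin (SPF-Abx mice), colonized at 8 wk of age and sampled 4 wk later, at 12 wk. Living CD45-EpCAM+ cells were sorted, their RNA was amplified, and the product was hybridized to an Affymetrix mouse genome array. The antibiotics left part of the resident microbiota in place, and the cage of each mouse is not given in the sources used here.

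Retinol is carried inside absorptive gut cells by a small binding protein, esterified for export or storage, and in part oxidized, first to retinal and then to retinoic acid. Retinoic acid binds nuclear receptors that pair with retinoid X receptors on DNA and change transcription, and CYP26 enzymes end the signal by oxidizing it further. In the gut, retinoic acid made by epithelial and dendritic cells is known for its part in gut homing and IgA class switching of lymphocytes.

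Promoter sequences of both genes below are shown because Rbp2 is the member with the clearest difference between the groups and because Rarb is the textbook gene whose promoter holds a retinoic acid response element. Each is the 250 bases before a transcription start in RefSeq's annotation of GRCm38.p6, read 5′ to 3′ on the strand of the gene. The stretch of Rbp2 is chr9:98490287-98490536 on the plus strand. Capitals mark a partial direct repeat of half-sites with a spacer of 1 base (GTCANAGGTCA, found on the other strand as TGACCTTTGAC). It holds the end of 1 half-site (GTCA) and 1 full half-site (AGGTCA). Capitals also mark both TATAAA matches, the first of them on the other strand.
Rbp2: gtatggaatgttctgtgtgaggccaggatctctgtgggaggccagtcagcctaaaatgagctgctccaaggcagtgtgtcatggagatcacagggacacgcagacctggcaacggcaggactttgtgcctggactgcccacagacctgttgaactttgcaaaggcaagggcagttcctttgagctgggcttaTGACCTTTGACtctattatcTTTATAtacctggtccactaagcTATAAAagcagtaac
The stretch of Rarb is chr14:16575477-16575726 on the minus strand, before an internal start of the gene, and capitals mark a direct repeat with a spacer of 5 bases (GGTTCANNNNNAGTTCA).
Rarb: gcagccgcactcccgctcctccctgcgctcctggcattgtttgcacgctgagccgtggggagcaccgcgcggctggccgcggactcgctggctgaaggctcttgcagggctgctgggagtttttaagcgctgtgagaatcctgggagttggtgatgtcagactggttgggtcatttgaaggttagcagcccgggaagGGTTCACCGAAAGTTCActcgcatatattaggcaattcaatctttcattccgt

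The repeat of the Rbp2 promoter covered bases -58 to -48 before the start, and that of Rarb covered bases -53 to -37. Both strands of 32851 promoters of this length were searched. GTCANAGGTCA, which contains AGGTCA, was in 38 of them (0.116%), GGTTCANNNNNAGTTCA in 2 (0.00609%), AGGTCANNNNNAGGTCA in 3 (0.00913%), AGGTCA in 14.0%, and TATAAA in 12.4%. The spelling of both repeats was taken from these sequences after they were read, and a match is a description of letters. The 9 genes have 13 promoters in the table, from 8 of the genes.

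The deposited values were on a log2 scale, and for every probe set the authors had subtracted its median over the 8 mice. They are called centred log2 values here. A value of 0 is thus the middle of the 8 mice, and no level or distance from background can be read from them. In bulk samples, fewer cells of a type and less RNA per cell cannot be told apart. The BTΔMAFF mouse 4 and BTWT mouse 2 arrays stood apart from the others along the main axis of variation (29.4% of the variance). The medians of the arrays lay between -0.03 and 0.04. Over all 45037 probe sets, 17197 (38.2%) followed these medians with a correlation over 0.9. Such a correlation gives the shape of the values over the arrays and not their size.

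Rbp2, which encodes the cellular retinol-binding protein of absorptive enterocytes, was the member whose groups were farthest apart. Its centred log2 values were 0.27, 0.78, 0.86, and 0.62 in BTΔMAFF mice, and -0.63, -0.84, -0.90, and -0.27 in BTWT mice. Every BTΔMAFF mouse was above every BTWT mouse, with a gap of 0.55 between the nearest of them. The means were 0.63 ± 0.26 in BTΔMAFF mice and -0.66 ± 0.28 in BTWT mice (SD, n = 4 each), a log2 difference of 1.29 (standard error 0.18, 95% confidence interval 0.87 to 1.72), or 2.45-fold higher in BTΔMAFF mice. The difference was between 1.21 and 1.42 when any single array was left out and 1.24 without both arrays that stood apart, and its SD over the 8 arrays, 0.735, was above that of 97.5% of all probe sets. The correlation of Rbp2 with the array medians was -0.46, and its difference was 1.31 after each array was centred on its median.

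Of the 11 member probe sets, 1 (Rbp2) was higher in BTΔMAFF mice at an unadjusted p under 0.05 in limma and 0 were lower, where 2.86% of all probe sets were higher and 2.24% lower. By groups that did not overlap, 1 member probe set was higher and 0 were lower, where 1.56% and 1.27% of all probe sets were. A fold change over 2 together with that p was met by Rbp2 alone among members, where 0.286% of all probe sets were higher and 0.262% lower by it. The members were named with this contrast known, so nothing is read from these counts. No probe set of the array passed an adjusted p of 0.05 in limma, with 0.0612 the smallest, while 2295 had an unadjusted p under 0.05 by limma and 1721 by the methods' unpaired test. The median log2 difference was 0.08 over the 11 member probe sets, of which 6 were above 0, and -0.02 over all probe sets.

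**Figure D1:**
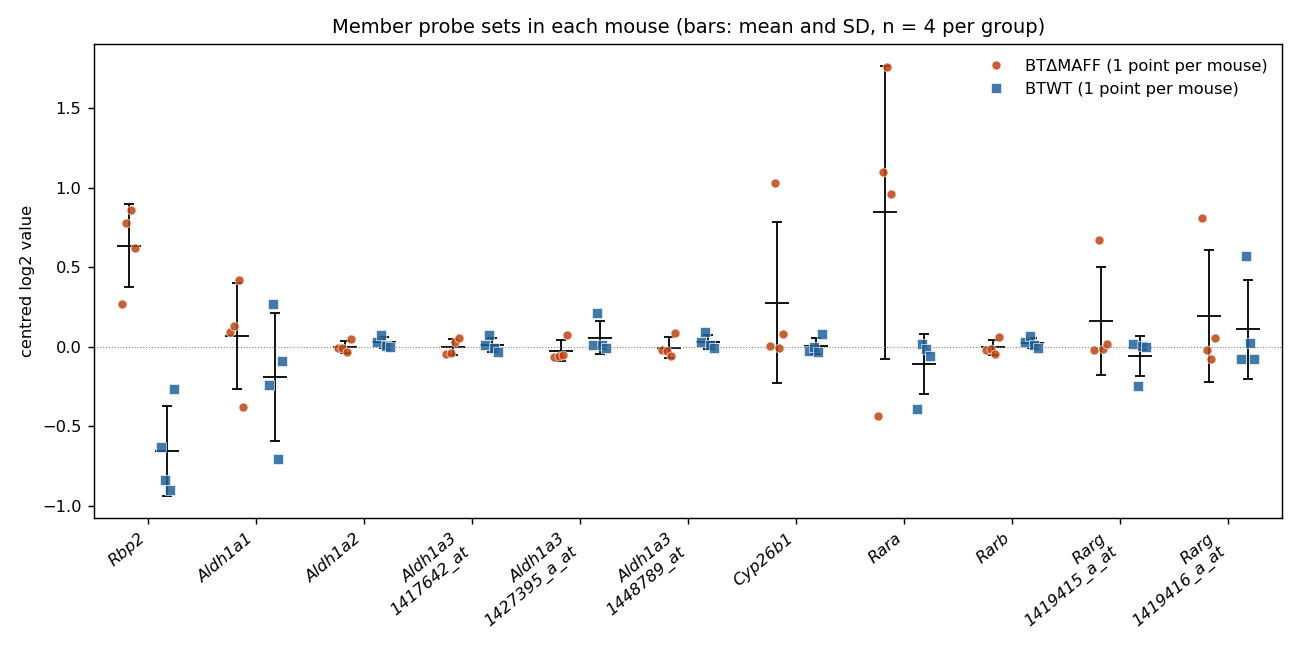
Centred log2 values of the 11 member probe sets (vertical axis), 1 point per mouse, with BTΔMAFF mice left of BTWT mice for each probe set and bars for the mean and SD (n = 4). The groups of Rbp2 do not overlap, 3 BTΔMAFF mice stand high for Rara, and the probe sets of Aldh1a2, Aldh1a3, and Rarb stay close to 0 in all 8 mice.

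For every probe set of the enzymes that turn retinal into retinoic acid, the groups overlapped. Aldh1a1, a cytosolic retinal dehydrogenase, had centred log2 values of 0.09, 0.13, 0.42, and -0.38 in BTΔMAFF mice, and -0.24, 0.27, -0.71, and -0.09 in BTWT mice. Both groups spread over most of the range, with BTΔMAFF mouse 4 the only one of its group below 0 and BTWT mouse 2 the only one of its group above it. The log2 difference was 0.26 (standard error 0.24, 95% confidence interval -0.31 to 0.83), and it was between 0.09 and 0.41 with single arrays left out. With limma's array weights, which gave the arrays weights of 0.12 to 4.68, it was 0.65. Without BTΔMAFF mouse 4 and BTWT mouse 2, the arrays that stood apart, it was 0.56 (standard error 0.19).

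Aldh1a2 encodes the retinal dehydrogenase best known from dendritic and mesenchymal cells. It lay between -0.033 and 0.05 in BTΔMAFF mice and between -0.006 and 0.075 in BTWT mice. The groups overlapped, the log2 difference was -0.03 (standard error 0.03), and the probe set followed the array medians with a correlation of 0.970.

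Aldh1a3, the third retinal dehydrogenase of this family, has 3 probe sets, with log2 differences of -0.01, -0.08, and -0.04 (standard errors 0.04, 0.06, and 0.04). Probe set 1427395_a_at had centred log2 values of -0.069, -0.058, -0.052, and 0.074 in BTΔMAFF mice, and 0.009, 0.21, 0.007, and -0.007 in BTWT mice. In each group the highest value was in the array that stood apart, BTΔMAFF mouse 4 and BTWT mouse 2. Probe set 1448789_at followed the array medians with a correlation of 0.992, and 1417642_at had one of 0.678. The difference of 1417642_at changed its sign to 0.01 once each array was centred on its median. Without both arrays that stood apart, 1427395_a_at had a difference of -0.06 (standard error 0.01) and 1448789_at one of -0.05 (standard error 0.02). The medians of these 6 arrays also lay lower in BTΔMAFF mice, without overlap between the groups.

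Cyp26b1, a cytochrome P450 that breaks down retinoic acid, stood out in a single mouse. Its centred log2 values were 0.002, 1.03, -0.009, and 0.08 in BTΔMAFF mice, and -0.03, -0.002, -0.04, and 0.08 in BTWT mice. Apart from BTΔMAFF mouse 2, all mice lay close to 0. The log2 difference was 0.27 (standard error 0.24), and 0.02 without BTΔMAFF mouse 2.

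The same mouse held the highest mean of the fibroblast and muscle markers. That list (Col1a1, Col1a2, Col3a1, Dcn, Pdgfra, Vim, Acta2, and Des, all 8 measured) averaged 0.30, 0.95, 0.005, and -0.03 in BTΔMAFF mice, and -0.11, -0.59, -0.30, and 0.30 in BTWT mice. The group means of the list were 0.31 ± 0.46 in BTΔMAFF mice and -0.17 ± 0.37 in BTWT mice (SD, n = 4 each, two-sided exact permutation test, p = 0.171). In BTΔMAFF mouse 2, the collagen genes Col1a1, Col1a2, and Col3a1 were at 2.03, 1.93, and 1.45, and Dcn was at 1.80. Pdgfra, Acta2, and Des were at -0.03, -0.03, and -0.01 there, and Vim was at 0.49, below BTΔMAFF mouse 1 (1.18). The part of such cells in the Cyp26b1 value was not tested.

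**Figure D2:**
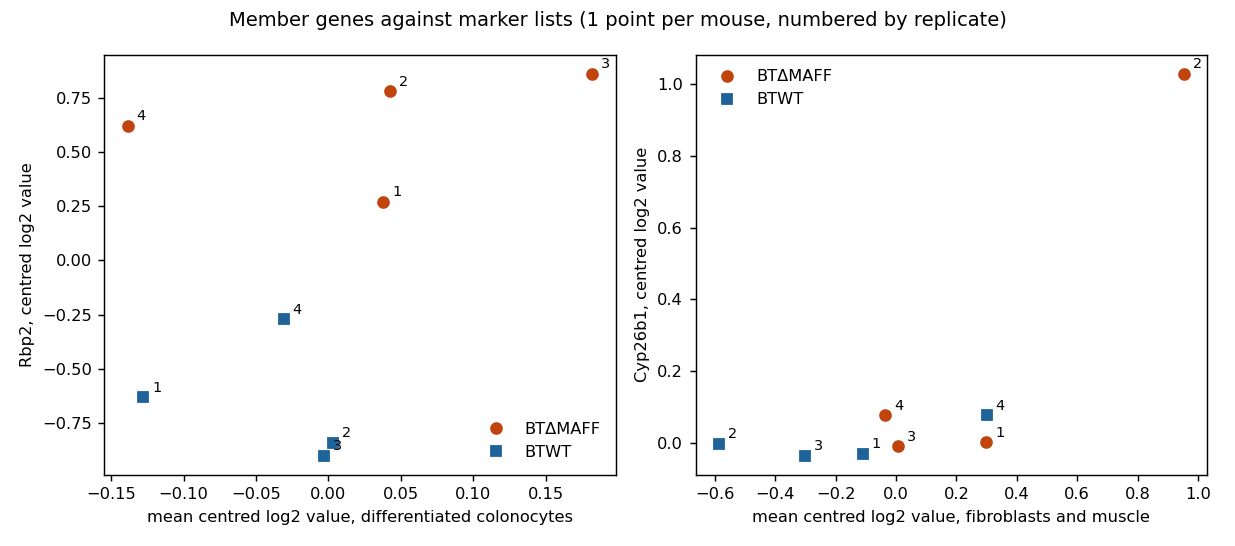
Each point is 1 mouse, numbered by replicate. The left panel sets the centred log2 value of Rbp2 (vertical axis) against the mean centred log2 value of differentiated colonocyte markers (horizontal axis), and the right panel sets Cyp26b1 against the mean of fibroblast and muscle markers. BTΔMAFF mouse 2 lies apart at the top right for Cyp26b1 (1.03 against 0.95), while the groups separate for Rbp2 and overlap for the colonocyte markers.

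Among the receptors, Rara, the retinoic acid receptor expressed most widely, had the largest difference. Its centred log2 values were -0.44, 1.10, 1.76, and 0.96 in BTΔMAFF mice, and -0.39, 0.02, -0.02, and -0.06 in BTWT mice. BTΔMAFF mice 2, 3, and 4 were above all BTWT mice, and BTΔMAFF mouse 1 was below all of them. The means were 0.84 ± 0.92 in BTΔMAFF mice and -0.11 ± 0.19 in BTWT mice (SD, n = 4 each), and the log2 difference was 0.96 (standard error 0.44, 95% confidence interval -0.07 to 1.99). It was 1.38 (standard error 0.21) without BTΔMAFF mouse 1 and 0.65 (standard error 0.39) without BTΔMAFF mouse 3. Rara has 1 probe set here, whose suffix (_a_at) marks probes shared by several transcripts of the gene, so isoforms were not told apart.

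**Figure D3:**
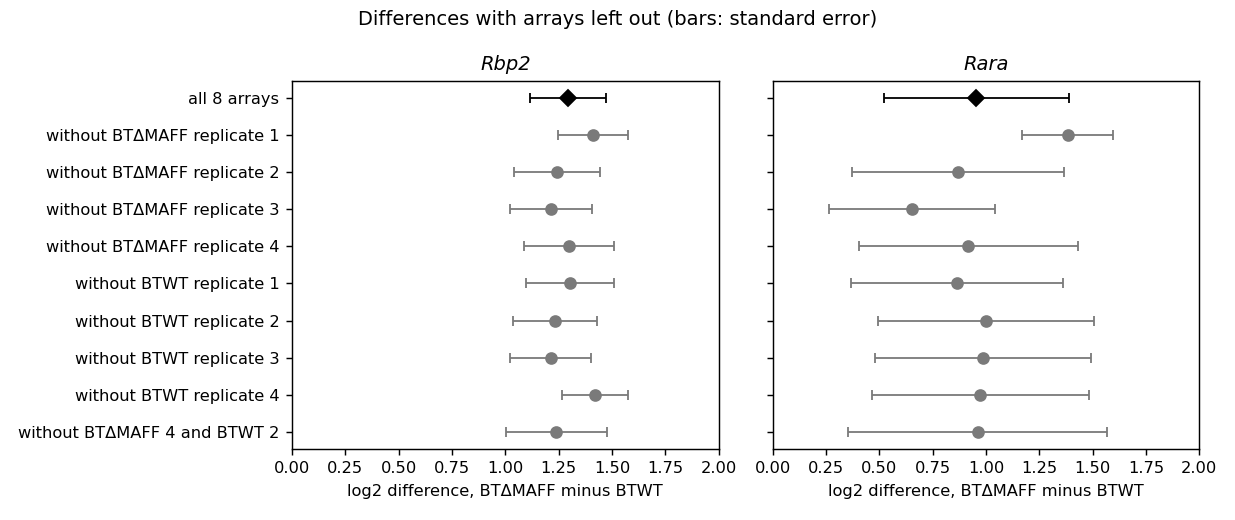
Log2 difference of Rbp2 (left) and Rara (right), BTΔMAFF minus BTWT, with all 8 arrays and with arrays left out (horizontal axis, bars show the standard error). The differences of Rbp2 stay between 1.21 and 1.42 without any single array, and those of Rara run between 0.65 and 1.38.

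Rarb encodes a receptor that retinoic acid itself induces through the repeat shown in its promoter. It lay between -0.045 and 0.062 in BTΔMAFF mice and between -0.01 and 0.063 in BTWT mice. It followed the array medians with a correlation of 0.999, and the log2 difference was -0.03 (standard error 0.03).

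Rarg, the receptor known best from skin, has 2 probe sets that did not move together, with a correlation of -0.37 over the 8 arrays. Probe set 1419415_a_at had centred log2 values of -0.024, 0.67, -0.018, and 0.016 in BTΔMAFF mice, and 0.013, -0.25, 0.002, and -0.002 in BTWT mice. BTΔMAFF mouse 2 was high, BTWT mouse 2 was low, and the other 6 mice lay close to 0. The log2 difference was 0.22 (standard error 0.17), 0.05 without BTΔMAFF mouse 2, and 0.44 with array weights. The weight of BTΔMAFF mouse 2 was 4.36, where those of the other BTΔMAFF arrays were 0.12 to 1.31. Probe set 1419416_a_at had 0.81, -0.021, -0.076, and 0.053 in BTΔMAFF mice, and -0.077, 0.57, 0.021, and -0.081 in BTWT mice. Here 1 mouse of each group was high, BTΔMAFF mouse 1 and BTWT mouse 2, and neither was the mouse high in the first probe set. This gave a log2 difference of 0.08 (standard error 0.24) that ran between -0.12 and 0.24 with single arrays left out.

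Some members had high values in the same mice. Over the 8 arrays, Rbp2 and Rara had a correlation of 0.76, and of 0.62 after the mean of each group was taken out. With Rarg 1419416_a_at, the correlation within the groups was -0.76 for Rbp2 and -0.69 for Rara. For Cyp26b1 and Rarg 1419415_a_at it was 0.93, and 0.94 over the 8 arrays, values that rest on the high value of BTΔMAFF mouse 2 in both probe sets. Aldh1a2 and Rarb had a correlation of 0.979 over the 8 arrays, and both followed the array medians. The points of these correlations share arrays and array offsets, and there are 8 of them.

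Over 18185 other genes, each represented by its probe set with the largest SD, those most like Rbp2 within the groups were Mfn2 (correlation 0.951 over 8 arrays after the group means were taken out, 6 degrees of freedom), Man2b1 (0.949), Tspan3 (0.945), Fgd6 (0.944), Fam110c (0.941), and Azi2 (0.924). These are the 6 highest of 18185 correlations over 8 arrays, and whether they exceed what chance gives was not tested. None of the 6 shared the difference of Rbp2 between the groups. Their log2 differences lay between -0.21 for Mfn2, a mitochondrial fusion protein, and 0.28 (standard error 0.27) for Fgd6.

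The other genes of the pathway were read from a list of 50, of which 46 were measured and the others were not analysed here. At an unadjusted p under 0.05 in limma, 2 of the 46 were higher in BTΔMAFF mice, Rxra and Ncoa1, and 1 was lower, Fabp5. These are 4.35% and 2.17% of the list, where 3.37% and 2.35% of all 18193 genes were higher and lower. None passed an adjusted p of 0.05, with 0.670 for Rxra and 0.828 for Ncoa1 and Fabp5. The median log2 difference over the 46 genes was -0.02, the same as over all genes. With all 83 probe sets of these genes, 2 were higher and 3 lower, which is 2.41% and 3.61%, where 2.86% and 2.24% of all probe sets were.

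None of the 8 measured carriers and uptake genes passed the unadjusted threshold. Crabp2, a retinoic acid-binding protein that delivers its ligand to receptors, had a log2 difference of 0.04 (standard error 0.09) and was highest in BTΔMAFF mouse 4 (0.35). Stra6l, a membrane receptor for retinol-binding protein, had one of -0.43 (standard error 0.30), with BTΔMAFF mouse 3 at -0.87.

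Of 6 genes of ester storage and carotene cleavage, none passed either. Lrat, which esterifies retinol that Rbp2 presents, had a log2 difference of 0.08 (standard error 0.40) and values between -0.48 and 0.48 in BTΔMAFF mice and between -0.98 and 0.65 in BTWT mice. Bco1, which cleaves beta-carotene into retinal, lay between -0.025 and 0.055 in BTΔMAFF mice and between -0.014 and 0.064 in BTWT mice, with a difference of -0.02. Dgat1, an acyltransferase that also esterifies retinol, had the highest difference of these genes, 0.64 (standard error 0.29), and is named after its values were seen. The other probe set of Lrat had -0.18 (standard error 0.34), and that of Dgat1 had 0.36 (standard error 0.25).

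Of 17 retinol and retinal oxidoreductases, none passed. Dhrs3, which reduces retinal back to retinol, had a log2 difference of -0.39 (standard error 0.21). Its values were -0.31, -0.34, 0.32, and -0.69 in BTΔMAFF mice, and -0.08, 0.26, 0.08, and 0.29 in BTWT mice, and BTΔMAFF mouse 3 was the highest of all. Neither of the 2 further aldehyde dehydrogenases passed. Aldh1a7, a close relative of Aldh1a1, had the highest difference of all 46 genes with a wide error (0.93, standard error 0.71), and is named after its values were seen. Of the 2 breakdown genes, none passed, and Cyp26a1, a retinoic acid hydroxylase that its own substrate induces in many tissues, followed the array medians with a correlation of 0.997 and had a difference of -0.02 (standard error 0.02).

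Of 11 receptor partners and cofactors, 2 were higher and 1 lower at the unadjusted threshold, where 3.37% and 2.35% of all genes were. Rxra, the retinoid X receptor that pairs with retinoic acid receptors, had centred log2 values of 0.44, 0.21, 0.46, and 0.04 in BTΔMAFF mice, and -0.09, -0.46, -0.04, and -0.10 in BTWT mice with probe set 1454773_at. The groups did not overlap, with a gap of 0.08. By this measure 1 of the 46 pathway genes was higher and 0 were lower, where 1.84% and 1.3% of all genes were. Of their 83 probe sets in all, 1 lay higher and 3 lower without overlap, which is 1.2% and 3.61%, where 1.56% and 1.27% of all probe sets were. The 3 lower ones belonged to Fabp5, Rdh14 (1453864_at, log2 difference -0.33), and Nrip1 (1449089_at, log2 difference -0.45), of which Rdh14, a retinol dehydrogenase, and Nrip1, a corepressor of nuclear receptors, are named after their values were seen. The probe set with the largest SD had -0.15 (standard error 0.53) for Rdh14 and 0.28 (standard error 0.65) for Nrip1, with overlapping groups. The groups also overlapped for their remaining probe sets. These had 0.02 (standard error 0.20) for Rdh14, and -0.27, -0.11, -0.38, and -0.47 (standard errors 0.16, 0.16, 0.17, and 0.36) for Nrip1. For Rxra 1454773_at, the log2 difference was 0.46 (standard error 0.13, limma adjusted p = 0.670). The other probe sets of Rxra had differences of 0.35 (standard error 0.17) and -0.02 (standard error 0.02), and their groups overlapped. Ncoa1, a coactivator of nuclear receptors, had a log2 difference of 0.45 (standard error 0.18, limma adjusted p = 0.828) with overlapping groups, and its other probe sets had 0.11 and -0.04.

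Fabp5 encodes a fatty acid-binding protein that can also carry retinoic acid, toward the receptor PPARδ. With probe set 1416022_at its centred log2 values were 0.11, -0.34, -0.76, and -0.15 in BTΔMAFF mice, and 1.36, -0.11, 0.69, and 0.68 in BTWT mice. BTΔMAFF mice 2, 3, and 4 lay below all BTWT mice, and the log2 difference was -0.94 (standard error 0.33, limma adjusted p = 0.828). The groups did not overlap with its other probe set, 1416021_a_at, which had -0.76, -0.21, -1.19, and -0.68 in BTΔMAFF mice, and 0.54, 0.30, 0.37, and 0.21 in BTWT mice. Here the difference was -1.06 (standard error 0.20, limma adjusted p = 0.313).

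**Figure D4:**
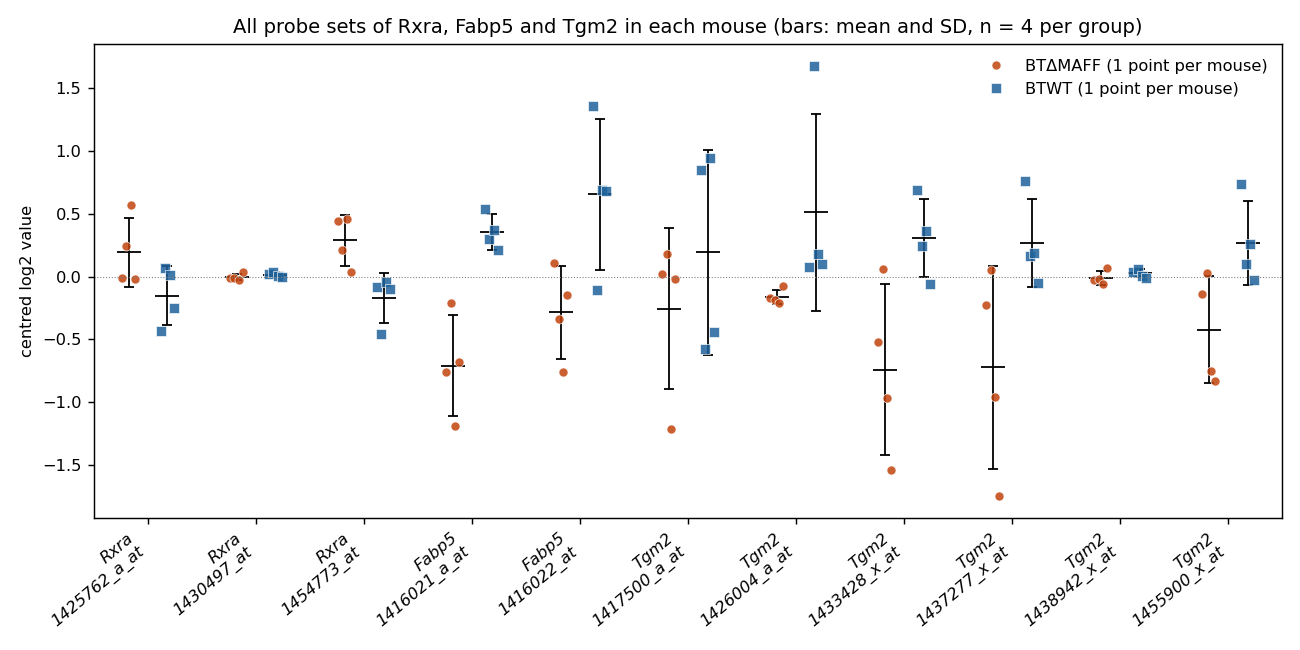
Centred log2 values (vertical axis) of every probe set of Rxra, Fabp5, and Tgm2, 1 point per mouse, with BTΔMAFF mice left of BTWT mice and bars for the mean and SD (n = 4). The groups do not overlap for 1 of 3 probe sets of Rxra and 1 of 2 of Fabp5, and all 6 of Tgm2 have a lower mean in BTΔMAFF mice, 1 of them without overlap.

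Among genes that retinoic acid is known to induce, calls went both ways. Of 15 listed, 13 were measured, some of them also members or pathway genes. Of these 13, 1 was higher at the unadjusted threshold, Rarres2, and 1 was lower, Tgm2, which is 7.69% each way, where 3.37% and 2.35% of all genes were. The median log2 difference of the 13 was -0.01. Of them, 5 (38.5%) followed the array medians with a correlation over 0.9, where 34.4% of all genes did. Tgm2, a transglutaminase that crosslinks proteins, had centred log2 values of -0.23, 0.05, -0.96, and -1.75 in BTΔMAFF mice, and 0.76, 0.16, 0.19, and -0.05 in BTWT mice with probe set 1437277_x_at. The groups overlapped, as BTΔMAFF mouse 2 was above BTWT mouse 4. The log2 difference was -0.99 (standard error 0.41, limma adjusted p = 0.828), and those of all 6 probe sets lay between -1.05 and -0.04. Rarres2, which encodes the chemoattractant chemerin, had 0.31 (standard error 0.11, limma adjusted p = 0.828), and its other probe sets had -0.05 and 0.04.

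**Figure D5:**
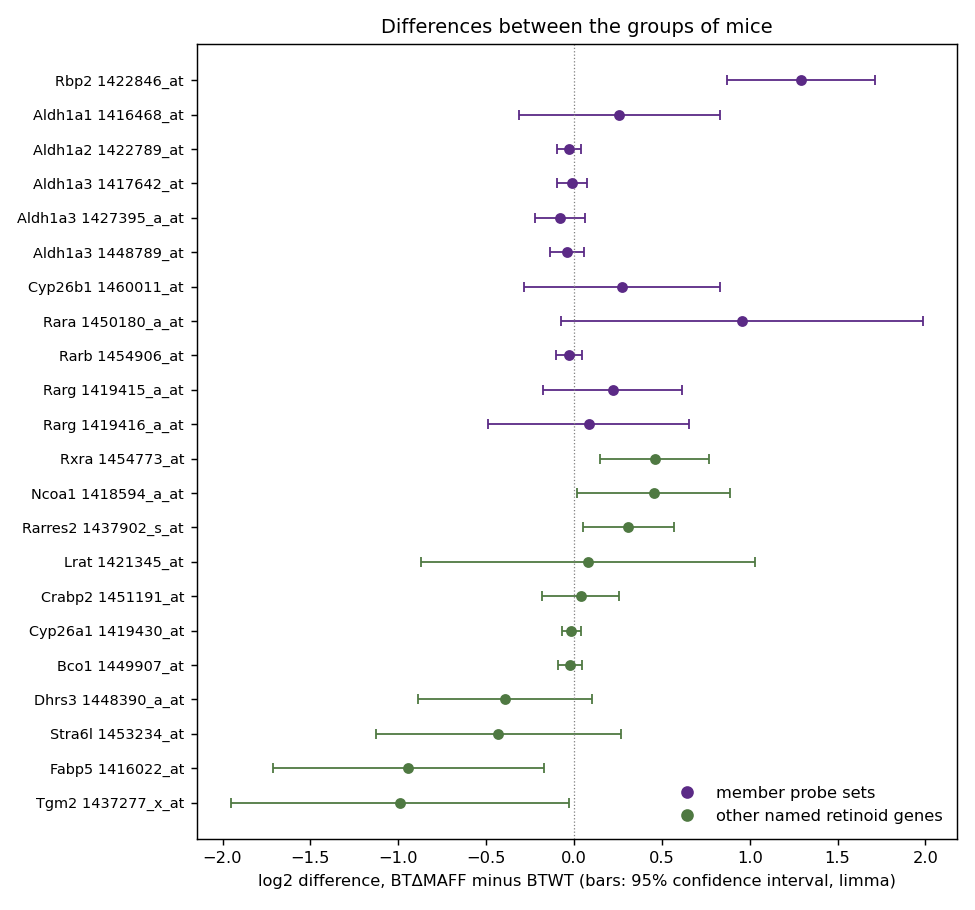
Log2 differences, BTΔMAFF minus BTWT (horizontal axis), of the 11 member probe sets and 11 other named retinoid genes, with 95% confidence intervals from limma. Rbp2 has the highest difference, 1.29, and Tgm2 the lowest, -0.99.

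Marker lists give the other cell types that the sorted cells could hold. The 12 measured genes of small-intestinal enterocytes, where Rbp2 is best known, averaged 0.01 ± 0.21 in BTΔMAFF mice and 0.06 ± 0.20 in BTWT mice (SD, n = 4 each, two-sided exact permutation test, p = 0.686). Of these, Slc5a1, a glucose transporter, had a log2 difference of 0.66 (standard error 0.18) and Fabp6, an ileal bile acid-binding protein, one of -1.13 (standard error 0.44). Epithelial markers averaged 0.07 ± 0.04 in BTΔMAFF mice and -0.04 ± 0.05 in BTWT mice (SD, n = 4 each, exact permutation test, p = 0.0571). Of these, Vil1 and Krt19 had log2 differences of 0.40 (standard error 0.10) and 0.22 (standard error 0.08). Krt8 and Krt18 had 0.16 (standard error 0.08) and 0.10 (standard error 0.12), and Cdh1 and Epcam had -0.11 (standard error 0.10) and -0.10 (standard error 0.23). Colonocyte markers averaged 0.03 ± 0.13 in BTΔMAFF mice and -0.04 ± 0.06 in BTWT mice (SD, n = 4 each, exact permutation test, p = 0.343), and the list did not move one way. Slc26a3 and Krt20 had log2 differences of 0.48 (standard error 0.08) and 0.32 (standard error 0.10). Car1, Guca2a, and Cdhr5 had 0.11, 0.10, and 0.11 (standard errors 0.08, 0.08, and 0.12), and Car4 had 0.004. Aqp8 and Guca2b had -0.43 (standard error 0.23) and -0.13 (standard error 0.35), with Aqp8 at -0.95 in BTΔMAFF mouse 2 and Guca2b at -1.21 in BTΔMAFF mouse 4. Goblet cell markers averaged 0.11 ± 0.03 in BTΔMAFF mice and -0.12 ± 0.15 in BTWT mice (SD, n = 4 each, exact permutation test, p = 0.0571). Of these, Clca1 and Fcgbp had differences of 0.90 (standard error 0.26) and 0.67 (standard error 0.14), and Agr2 had one of -0.55 (standard error 0.19).

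The groups did not overlap for the mean of the markers of dividing cells, of which 4 of 5 were measured. All 4 were lower in BTΔMAFF mice at an unadjusted p under 0.05 in limma, where 2.35% of all genes were. Their mean ran between -0.65 and -0.13 in BTΔMAFF mice, and between 0.06 and 1.01 in BTWT mice (log2 difference -0.96). The exact permutation test gave p = 0.0286, below which 4 against 4 cannot go, and 0.190 adjusted over 10 lists. The part of this difference, and of the epithelial, colonocyte, and goblet cell markers, in the Rbp2 value was not tested. Ptprc, which encodes CD45, had a log2 difference of 0.01 (standard error 0.03) and Epcam one of -0.10 (standard error 0.23). RNA quality was read from the Gapdh controls, whose 3-prime value minus the 5-prime value was 0.01 ± 0.16 in BTΔMAFF mice and -0.11 ± 0.14 in BTWT mice (SD, n = 4 each, exact permutation test, p = 0.314). The same measure of the beta-actin controls was 0.03 ± 0.05 in BTΔMAFF mice and -0.04 ± 0.02 in BTWT mice (SD, n = 4 each, exact permutation test, p = 0.0857), and its part in the results was not tested.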

How the data were processed

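Values of 8 Affymetrix arrays, 1 per mouse, were read for 45101 probe sets. The authors deposited log2 values, with the median over all mice subtracted for each probe set, made with Affymetrix Expression Console and GeneSpring. How they summarized probes and corrected and normalized the signal is not given in the sources used here.

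Labels gave the group and number of each array, 4 BTΔMAFF and 4 BTWT mice. Without 64 Affymetrix controls, 45037 probe sets were fitted together in R 4.3.3 with lmFit and eBayes of limma 3.58.1 (BTΔMAFF minus BTWT, no covariate), with Benjamini-Hochberg adjustment over all of them. Confidence intervals are limma's, with its moderated variance. Probe sets with 1 gene numbered 34945, 932 had several and were not named, and 9160 had none. A probe set stood for its gene where its SD over the 8 arrays was the largest of that gene. Means of marker lists and control differences were compared by a two-sided exact permutation test over mice in scipy 1.17.1. Marker lists hold 10 cell types, of which leukocytes, enteroendocrine, goblet, mesothelial, and endothelial and glial lists had exact p of 0.629, 0.286, 0.0571, 0.543, and 0.629.

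The members and lists were chosen with earlier results of these data known. Named genes were every member probe set, other retinoid genes with an unadjusted p under 0.05 (at most 8), Crabp2, Cyp26a1, Rxra, Lrat, Bco1, Dhrs3, and Stra6l whatever their p, the 6 genes most correlated with Rbp2 within groups, Epcam, and Ptprc. The single genes given from the marker lists, Dgat1, Aldh1a7, Rdh14, and Nrip1 were chosen after their values were seen.

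Alternatives were quantile normalization, centring each array, a block for the replicate number, array weights, a robust prior, the methods' unpaired test, a filter on SD in place of one on dim probe sets, all probe sets of a gene, leaving out each array, and leaving out both arrays that stood apart. The procedure was tested on simulated data. The number of arrays limits the precision. Promoters came from RefSeq tables of GRCm38.p6.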

Additional observations from a re-analysis of the deposited data

Results flagged for a closer look

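In groups of 4 mice, a value was marked where its gap to the nearest other mouse exceeded Dixon's critical share of the range of the group. Of 68 groups, 12 were marked, and chance marks about 1 in 20. BTΔMAFF mouse 2 was far above its group for Cyp26b1 (1.031) and Rarg 1419415_a_at (0.6668), and BTΔMAFF mouse 1 for Rarg 1419416_a_at (0.8106). BTWT mouse 2, 1 of the arrays that stood apart, was far from its group for 4 probe sets, with Rarg 1419416_a_at at 0.5715, Rarg 1419415_a_at at -0.2497, Rxra 1454773_at at -0.4614, and Aldh1a3 1427395_a_at at 0.2096. BTΔMAFF mouse 4, the other array apart, was far from its group for Aldh1a3 1427395_a_at (0.0740), Crabp2 (0.3508), and the mean of the mesothelium markers (0.1196). BTΔMAFF mouse 3 was far below its group for Stra6l (-0.8665). The mean of the leukocyte markers was 1.011 in BTWT mouse 3. It came from Cd74 (7.21) and Itgae (0.91), while Ptprc and the other 5 measured markers lay between -0.045 and 0.006 there.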

How the results depend on the processing

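The log2 difference of Rbp2 stayed between 1.21 and 1.45 under every alternative, and that of Rara between 0.65 and 1.38. With array weights, Aldh1a1 was 0.6525 and Cyp26b1 0.6948, and BTΔMAFF mouse 2, the mouse high for Cyp26b1, had a weight of 4.36. At the unadjusted threshold, 5 member probe sets were higher and 3 lower with these weights, where 4104 and 7429 of all 45037 were. Rbp2 alone was higher in the fit of all arrays, 2 were with the filter on SD (Rbp2 and Rara) and without both arrays that stood apart (Rbp2 and Aldh1a1, a choice set after an earlier analysis), and 2 of Aldh1a3 were lower without both arrays. Single arrays left out gave 1 to 2 higher and 0 lower. Of all probe sets, 1624 were higher and 3121 lower without both arrays, and 1016 of those the filter kept were higher. The members were named with this contrast known, so nothing is read from counts of member probe sets under any alternative.

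Of all probe sets, the adjusted threshold was passed by 338 higher and 172 lower with array weights, 16 and 9 with the filter on SD, 1 higher with centred arrays, 2 higher without both arrays, and 0 to 5 higher and 0 to 1 lower with single arrays left out (5 and 1 without BTΔMAFF mouse 4). At the unadjusted threshold, array weights gave 4104 higher and 7429 lower, 3121 were lower without both arrays, and single arrays left out gave 997 to 1823 higher and 777 to 2674 lower, the last without BTΔMAFF mouse 4. With a fold change over 2, array weights gave 402 higher and 274 lower, and single arrays left out 119 to 204 higher and 110 to 147 lower. Of the 46 pathway genes, array weights gave 4 higher and 10 lower, quantile normalization, centring, and the methods' unpaired test 1 higher each, and 4 were lower without both arrays. All probe sets counted gave 3 lower, and single arrays left out 1 to 2 higher and 0 to 2 lower. Shares over all genes are not given for these alternatives, and nothing is read from the counts of pathway genes.

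With the replicate number as a block, 2 member probe sets were higher (Rbp2 and Rara), as were 1 pathway gene, and 2 pathway genes were lower. Over all 45037 probe sets, 1409 were higher and 1339 lower with this block, and nothing is read from the counts of members and pathway genes. Mice of the same number had correlations of 0.39, -0.04, 0.03, and -0.27. These values cannot decide whether such mice shared a cage or a batch, which is not given in the sources used here.

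Centring the arrays moved the epithelial list to 0.1308 and the goblet cell list to 0.2397, both past the exact threshold. With single arrays left out, list differences ran from 0.02 to 0.13 for colonocytes, 0.10 to 0.13 for epithelial cells, 0.17 to 0.28 for goblet cells, -1.14 to -0.82 for dividing cells (p = 0.0571, the smallest an exact test of 3 against 4 allows), -0.48 to -0.16 for enteroendocrine cells, 0.04 to 0.50 for leukocytes, 0.26 to 0.64 for fibroblasts and muscle, -0.06 to -0.003 for mesothelium, -0.01 to 0.0743 for endothelium and glia, and -0.13 to 0.04 for small-intestinal enterocytes. The last was 0.03516 without BTΔMAFF mouse 1 and 0.02872 without BTWT mouse 2, and endothelium and glia -0.01377 without BTΔMAFF mouse 3. The Gapdh difference ran from 0.06 to 0.18 and that of beta-actin from 0.05 to 0.09. Where values changed, the cause was not tested.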
